A study of Mus musculus with 10 samples.

Results

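The genes described here code for the tubulins, from which microtubules are built, and for the motor proteins that walk along microtubules or actin: kinesins, cytoplasmic dynein and unconventional myosins. Members were taken by name from probe sets annotated to a single gene whose symbol starts with Tuba, Tubb, Tubg, Kif or Klc and a digit, Dync, Dynl, or Myo and a digit, with 1 myosin gene left out by the rule. This gave 72 of the 12393 genes measured, read by 139 probe sets, and each gene was represented by its probe set with the brightest mean over all arrays. Of the 72 genes, 4 were alpha tubulins, 8 beta tubulins (with the pseudogene Tubb2a-ps2), 6 gamma tubulin or proteins of its complex, 24 kinesins, 3 kinesin light chains, 4 cytoplasmic dynein chains, 5 dynein light chains and 18 myosins. Another 10 probe sets that match several genes, among them genes of these families, were left out. Of the brightest probe sets, 8 have names ending in _s_at and 3 in _x_at, among them those of Tuba1a, Kif5a and Kif22. Whether these also read related genes was not tested.

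RNA of the cerebral cortex was hybridised to 1 Affymetrix mouse expression array per animal, from 10 males aged 6 months, of which 5 carried the label FE65WT and 5 the label p97FE65NULL. FE65 (Apbb1) is an adaptor protein that binds the intracellular tail of the amyloid precursor protein, and the null allele removes its full-length form (p97) only. The targeted allele was made in embryonic stem cells of another strain, and the line was crossed repeatedly to C57Bl/6J, so that null mice can carry sequence of the other strain around FE65 on chromosome 7. The mice were pairs of littermates, but which arrays form a pair is not given. All values are GC-RMA expression values on a log2 scale, in which a step of 1 is a doubling of signal, and signals of different probe sets were not compared with each other.

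Microtubules are polymers of alpha and beta tubulin, and gamma tubulin with its complex starts new ones. Kinesins carry vesicles, organelles and tubulin itself toward the axon tip, dynein carries cargo back to the cell body, and myosins move cargo along actin at synapses and under the membrane. In neurons, several genes code for each tubulin and for each motor subunit, and the amyloid precursor protein is itself carried along axons.

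For the 3 beta tubulins with the lowest p of that group, Tubb3, Tubb4a and Tubb4b, the 250 bases before the annotated start are shown (RefSeq, GRCm38.p6, read 5′ to 3′ in the direction of the gene), so that the letters before the genes discussed most can be seen. Capitals mark a GC box (GGGCGG, or CCGCCC on the other strand) or a CCAAT box (CCAAT, or ATTGG on the other strand).
Tubb3, chr8:123411303-123411552, plus strand: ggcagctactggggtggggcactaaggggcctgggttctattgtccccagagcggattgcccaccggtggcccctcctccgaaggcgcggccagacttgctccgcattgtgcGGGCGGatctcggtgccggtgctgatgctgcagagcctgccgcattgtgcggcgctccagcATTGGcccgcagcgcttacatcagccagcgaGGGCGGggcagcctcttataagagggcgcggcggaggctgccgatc
Tubb4a, chr17:57087601-57087850, minus strand: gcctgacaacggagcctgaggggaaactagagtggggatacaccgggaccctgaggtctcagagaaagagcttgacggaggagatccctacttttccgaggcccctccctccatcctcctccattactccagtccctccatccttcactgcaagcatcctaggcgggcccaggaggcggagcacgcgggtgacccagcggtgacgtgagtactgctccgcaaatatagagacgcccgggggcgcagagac
Tubb4b, chr2:25224703-25224952, minus strand: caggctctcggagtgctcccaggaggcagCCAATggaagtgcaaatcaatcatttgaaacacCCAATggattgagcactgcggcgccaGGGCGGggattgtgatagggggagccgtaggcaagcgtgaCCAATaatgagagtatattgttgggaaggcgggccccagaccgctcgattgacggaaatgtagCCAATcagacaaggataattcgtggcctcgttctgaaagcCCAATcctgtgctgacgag
The Tubb4b window held 5 CCAAT boxes and 1 GC box, the Tubb3 window 2 GC boxes and 1 CCAAT box, and the Tubb4a window neither. Of 59 members with a promoter in the table, 36 (61%) had a GC box in this window, against 53.2% of 9887 measured genes and 32.9% of all 27025 promoters. A CCAAT box was found in 21 members (35.6%), against 35.8% of measured genes and 34.5% of all promoters. TATAAA, on either strand, was found in 5 members (8.47%), against 9.14% of measured genes and 13% of all promoters. The cyclic AMP response element TGACGTCA was found in 4 members (6.78%), against 2.32% of measured genes and 1.62% of all promoters. These are matches of letters, counted without a test.

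The 10 arrays correlated with each other at 0.9936 to 0.9987, with array medians of 3.01 to 3.14. Wild type replicate 2 and null replicate 5 received the lowest array weights, 0.398 and 0.555, against 0.842 to 1.682 for the others. Under the labels, Gprc5b (1451411_at) was at 7.39 in wild type and 6.16 in null, which is the opposite of the direction in the study's own tables. The 2 probe sets of Apbb1 lie outside the deleted part, so they do not read the deletion itself. They were at 11.11 and 10.99 in wild type and at 11.37 and 11.10 in null, which is again the opposite of the direction that the study's tables give. The study's RT-PCR over the region read by 1451411_at also gave more product in null forebrains, the opposite of these labels. The genotype behind each label was therefore not settled by the arrays, and "wild type" and "null" below mean the labels. If the labels were exchanged, every direction given below would turn. Of the members, Klc3, Tubgcp5, Kif22 and Tubgcp2 lie on chromosome 7, and none lies between Homer2 and Gprc5b, on either side of FE65, in the order of genes. The myosin gene left out by the rule does lie between them. The study did not map how far the sequence of the other strain reaches, so members outside may also lie in it.

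The comparison asked which genes differ in the cortex between arrays labelled null and arrays labelled wild type. None of the 72 members passed an adjusted p of 0.05 in limma (all at 0.999), and 0% of all genes did (0 of 12393). At an unadjusted limma p under 0.05, 5 members were lower in null (Tubb3, Tubb4a, Tubb4b, Dync1i2 and Dynll2) and 1 was higher (Myo9b). These are 6.94% and 1.39% of the members, beside 2.61% of all genes lower and 1.33% higher, and after quantile normalization, which turned the split over all genes to 1.78% lower and 2.7% higher, 2 members were lower. Without wild type replicate 3 the count of lower members was 3 (1.95% of all genes lower). The count of higher members was 0 without null replicate 3 (1.23% of all genes higher) and 3 without null replicate 5 (1.71%).

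Signal set how much could be seen. A mean of at least 5 was reached by 35 members (48.6%), against 39.7% of all genes, and 31 members had a mean under 4. Among the brighter 35, 5 (14.3%) were lower at an unadjusted p under 0.05 and 0 were higher, beside 5.2% and 1.32% of the 4921 genes of such signal. The median difference was -0.046 over these 35 members and -0.044 over those 4921 genes, with 12 members above 0 and 23 below. No member had groups that did not overlap, which 0.686% of all genes had. The 95% interval of the difference lay within 1.4-fold for 29 of the 35, and reached past it for Kif5a, Kif5b, Kif5c, Kif22, Tubb2b and Tubb4a.

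**Figure D1:**
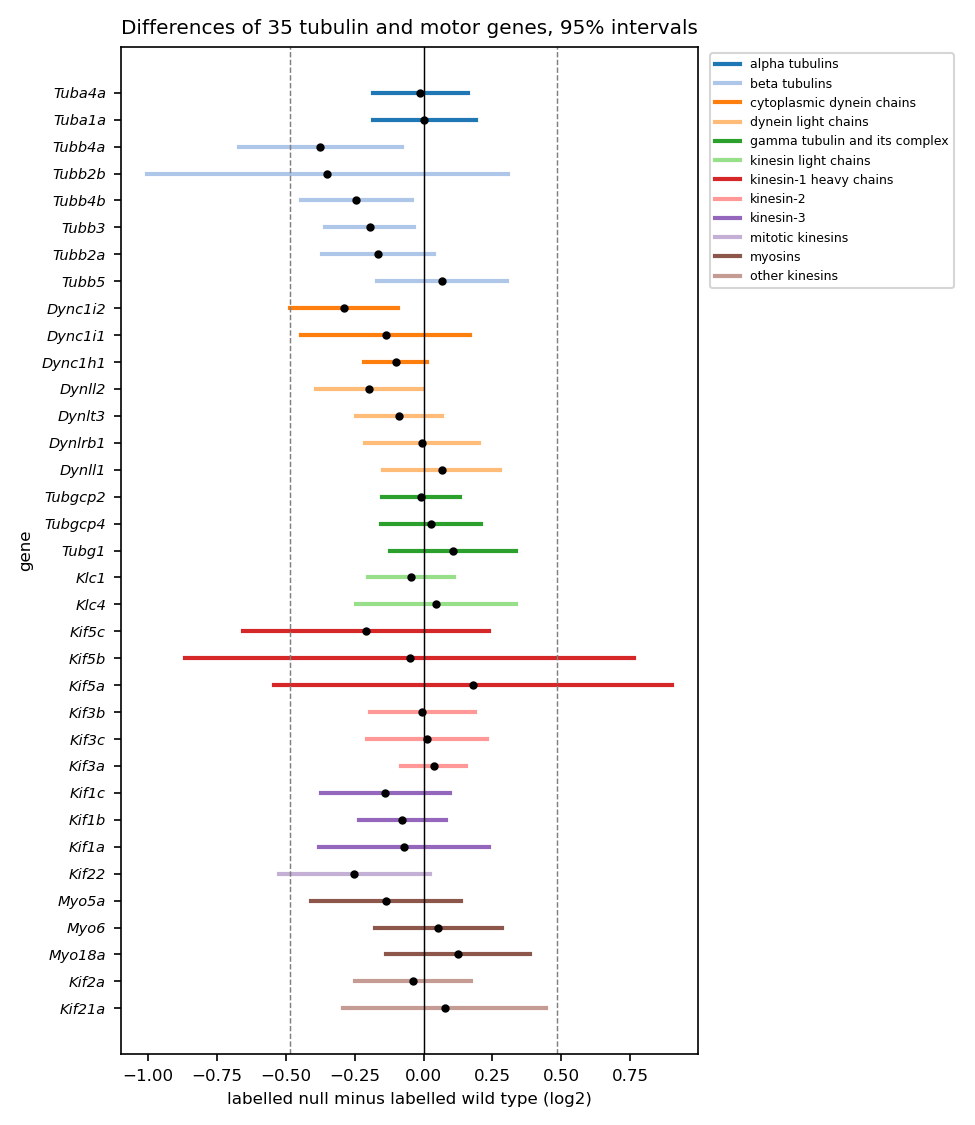
Labelled null minus labelled wild type (log2, horizontal axis) for the 35 members with a mean of at least 5, as points with 95% intervals from limma, coloured by role. Dashed lines mark 1.4-fold either way; the kinesin-1 heavy chains and Tubb2b have the widest intervals, and the intervals of Tubb3, Tubb4a, Tubb4b, Dync1i2 and Dynll2 lie below 0.

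Beta tubulins, the subunit that binds and hydrolyses GTP as microtubules grow, had a median difference of -0.18, with 6 of 8 genes below 0. By the mean of all probe sets of each gene the median was -0.073, and after quantile normalization -0.128. Over all genes the median difference was -0.0021, and over those with a mean of at least 5 it was -0.044. Tubb3, the beta tubulin of neurons, was at 9.44, 9.63, 9.70, 9.51 and 9.52 in wild type replicates 1 to 5 and at 9.49, 9.34, 9.14, 9.40 and 9.45 in null replicates 1 to 5. Wild type replicate 1 lay among the null arrays, and the other 4 wild type arrays were above all 5 null arrays. The difference was -0.20 (SE 0.07, 1.15-fold, limma p = 0.0229, exact permutation p = 0.0238, two-sided).

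Tubb4a, a beta tubulin of brain that is abundant in myelinating oligodendrocytes, was at 7.22, 7.22, 7.30, 7.27 and 6.99 in wild type and at 7.34, 6.66, 6.56, 6.87 and 6.70 in null. Null replicate 1 was the highest of all 10 arrays, and the other 4 null arrays lay below all wild type arrays. The difference was -0.37 (SE 0.13, 1.30-fold, limma p = 0.0178, exact permutation p = 0.0476), and without null replicate 1 it was -0.50. Tubb4b, a broadly expressed beta tubulin that is also part of cilia, was at 11.57, 11.25, 11.34, 11.41 and 11.38 in wild type and at 11.46, 11.08, 10.97, 11.08 and 11.15 in null. Here too 4 null arrays lay below all wild type arrays, and null replicate 1 was above 4 of the 5. The difference was -0.24 (SE 0.09, 1.18-fold, limma p = 0.0221, exact permutation p = 0.0476). The other 5 probe sets of Tubb4b had means under 3 and differences between -0.025 and 0.014, so that the mean over all its probe sets differed by -0.05.

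The remaining bright beta tubulins did not pass p of 0.05. Tubb2a differed by -0.165 (1.12-fold, limma p = 0.102, exact permutation p = 0.143), with null replicate 5 the highest of all arrays at 11.70 and the other 4 null arrays, at 11.12 to 11.40, below all wild type arrays (11.42 to 11.60). Tubb2b, a beta tubulin of developing neurons, ranged from 8.71 to 9.91 in wild type and from 8.36 to 9.90 in null, and its difference of -0.35 (SE 0.30) was within that spread. Tubb5, a major beta tubulin of many cells, was the bright beta tubulin above 0, at 0.07 (SE 0.11). Averaged over the 6 bright beta tubulins, wild type arrays were at 10.13 to 10.28 and null arrays at 9.82 to 10.14. Null replicates 1 and 5 lay at 10.14 and 10.13, at the low end of wild type, and the other 3 at 9.82, 9.94 and 9.95.

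**Figure D2:**
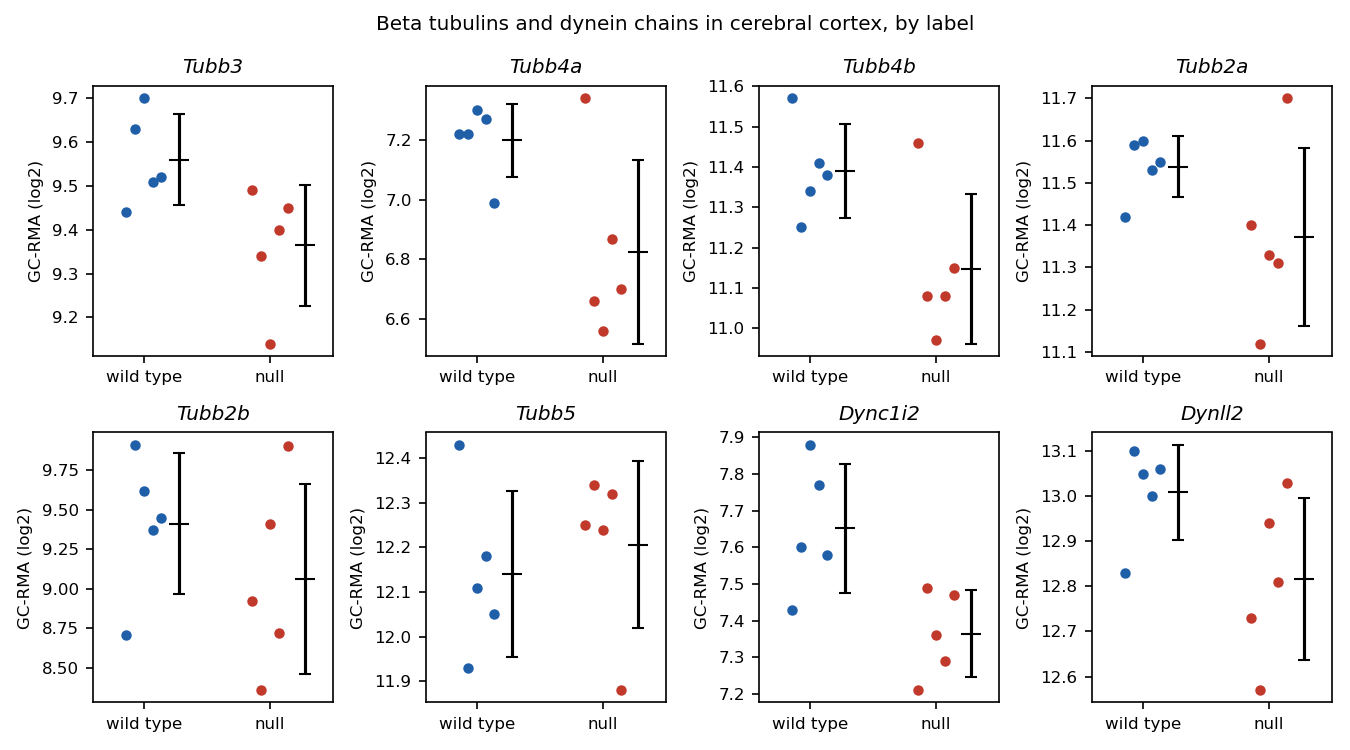
GC-RMA log2 values of 6 beta tubulins, a dynein intermediate chain and a dynein light chain in each mouse (points; blue, labelled wild type; red, labelled null), with the mean and SD of each group in black and a separate vertical scale for each gene. In the panels of Tubb4a and Tubb4b 1 red point, null replicate 1, stands among or above the blue points.

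Of the alpha tubulins, the partner subunit, 2 had a mean of at least 5. Tuba1a, the main alpha tubulin of neurons, had a difference of 0.003 (95% interval -0.185 to 0.192) and Tuba4a of -0.012 (-0.185 to 0.160), and the sign of each turned under other settings. Tuba3b and Tuba8 had means under 3. Of gamma tubulin and its complex, Tubg1 differed by 0.11 (SE 0.10), and the other 5 members lay between -0.08 and 0.04. Neither group had a member with a limma p under 0.05.

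Markers of other cells are given beside the beta tubulins. The 6 oligodendrocyte markers measured, Mbp, Mobp, Mog, Mag, Cnp and Cldn11, were all below 0, and Mbp (-0.23) and Cldn11 (-0.52) had a limma p under 0.05. None of the 6 had a mean under 5. Of the 4921 genes with a mean of at least 5, 5.2% were lower at such a p, and their median difference was -0.044. Their summed level on a log2 scale was 14.31 to 14.72 in wild type and 14.21 to 14.37 in null, and null replicate 1, with the highest Tubb4a, was at 14.33. Of 7 neuronal markers 6 were below 0, with a summed level of 13.77 to 14.09 in wild type and 13.74 to 13.98 in null. The sums add unlogged signals, so the brightest neuronal markers, Snap25 and Syt1 (means of 13.17 and 12.3), weigh most in this level. Rbfox3, a nuclear protein of neurons with a mean of 4.16, under the cut-off of 5, differed by -0.37 at a limma p under 0.05. Neurod6, a transcription factor of excitatory neurons, differed by -0.48, at a limma p just above 0.05. Below 0 were also 6 of 7 interneuron markers, 5 of 7 endothelial and mural markers and 4 of 7 astrocyte markers. Of 7 microglial markers 3 were below 0 and 4 above. The part of these cells in the beta tubulin differences was not tested, and in bulk tissue fewer cells of a type and less RNA per cell cannot be told apart.

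Dynein, the motor toward the cell body, had its lowest p in an intermediate chain, the subunit that binds dynactin and cargo. Dync1i2 was at 7.43, 7.60, 7.88, 7.77 and 7.58 in wild type and at 7.21, 7.49, 7.36, 7.29 and 7.47 in null. Wild type replicate 1 lay within the null range, and the other 4 were above all null arrays. The difference was -0.29 (SE 0.09, 1.22-fold, limma p = 0.00825, exact permutation p = 0.0238), and its limma p was under 0.05 under each of the 21 alternatives run.

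The heavy chain Dync1h1, which holds the motor domain, was at 10.50, 10.60, 10.47, 10.58 and 10.47 in wild type and at 10.55, 10.41, 10.44, 10.39 and 10.32 in null, a difference of -0.10 (SE 0.05, limma p = 0.0795, exact permutation p = 0.0714). Null replicate 1 was again within the wild type range and the other 4 below it. The second intermediate chain, Dync1i1, differed by -0.14 (SE 0.14), less than its spread. Dynll2, a light chain shared by dynein and myosin V, was at 12.83, 13.10, 13.05, 13.00 and 13.06 in wild type and at 12.73, 12.57, 12.94, 12.81 and 13.03 in null. The difference was -0.20 (SE 0.09, 1.15-fold, limma p = 0.0462, exact permutation p = 0.0714), so that the tests fell on different sides of 0.05. Its close relative Dynll1 differed by 0.07 (SE 0.10), and Dynlrb1 by -0.005. Dynlt3, another light chain, differed by -0.09 by its brightest probe set, by -0.29 by 1449929_at (limma p = 0.0386, exact permutation p = 0.0714) and by -0.03 by 1449928_at.

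The kinesin-1 heavy chains, which haul cargo along axons, spread more between mice of the same label than nearly all genes of such signal. The residual SD of Kif5a was at percentile 99.3, of Kif5b at 99.6 and of Kif5c at 92.7 of the 4921 genes, and that of Tubb2b at 98.8. Kif5a, the neuronal heavy chain, was at 10.43, 9.32, 10.30, 10.65 and 9.66 in wild type and at 10.75, 9.84, 9.68, 11.06 and 9.95 in null. High and low mice were found under both labels, and the difference of 0.18 had a 95% interval from -0.54 to 0.90.

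Kif5b, the heavy chain found in most cells, was read by 5 probe sets with a mean of at least 5. By the brightest, 1418427_at, it was at 11.25, 9.48, 10.52, 10.48 and 10.61 in wild type and at 11.05, 10.56, 10.69, 10.56 and 9.24 in null, a difference of -0.05 (SE 0.37). The lowest were wild type replicate 2 and null replicate 5, the 2 arrays of the lowest weight, and the highest were replicate 1 of each label. By 1418428_at the order was turned: wild type replicates were at 7.30, 8.82, 8.17, 8.40 and 8.19 and null replicates at 7.38, 7.54, 7.89, 7.22 and 8.23. Across the 10 mice the 2 probe sets had r = -0.70 (permutation p = 0.020, adjusted 0.081 over the 4 probe sets set against 1418427_at) and a Spearman rank correlation of -0.71 (permutation p = 0.027, adjusted 0.081), with r = -0.59 without wild type replicate 2 and null replicate 5. The other 3 had r between -0.49 and -0.29. All 5 differences lay below 0, from -0.525 to -0.051, and that of 1418430_at was -0.445 (limma p = 0.0198, exact permutation p = 0.0476).

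**Figure D3:**
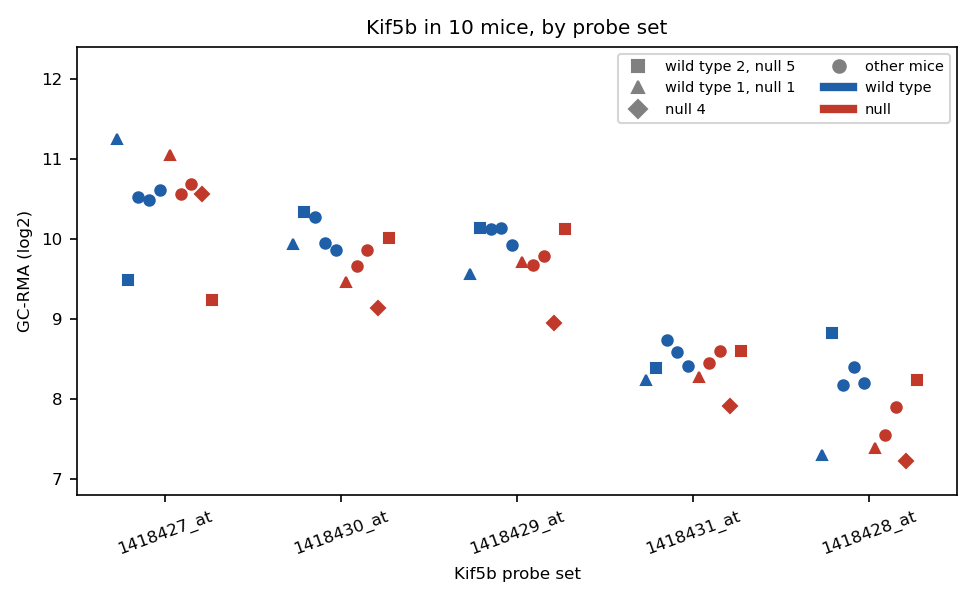
GC-RMA log2 values of Kif5b in the 10 mice by 5 probe sets (blue, labelled wild type; red, labelled null). Squares, wild type replicate 2 and null replicate 5, are lowest by 1418427_at (9.48 and 9.24) and among the higher points by 1418428_at (8.82 and 8.23).

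Kif5c, the third heavy chain, gave opposite signs by its 2 probe sets, -0.21 (SE 0.20) by 1422945_a_at and 0.34 by 1450804_at, and neither had a limma p under 0.05. Over all members, 24 further probe sets had a mean of at least 5, and 15 of them had the sign of the brightest probe set of their gene. The mean of all probe sets gave Kif5c, Klc1 and Kif3a the other sign.

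The spread of Kif5a between mice was shared with probe sets of other kinesins and of Klc1. Kif5a was set against the 58 other member probe sets with a mean of at least 5, a comparison chosen after its spread was seen. Kif5c by 1450804_at was at 6.61, 5.44, 6.52, 6.56 and 5.68 in wild type and at 7.40, 6.02, 5.46, 7.38 and 6.24 in null, with r = 0.96 (permutation p = 1e-05, the smallest 100000 resamples can give; adjusted 0.00058) and a Spearman rank correlation of 0.96 (permutation p = 4e-05, adjusted 0.0023). Mice low in Kif5a, wild type replicates 2 and 5 and null replicate 3, were also lowest in Kif5c by this probe set.

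Kif1a, a kinesin-3 that carries synaptic vesicle precursors, followed by 1421053_at with r = 0.93 (permutation p = 0.00024, adjusted 0.007) and a Spearman rank correlation of 0.89 (p = 0.0012, adjusted 0.017). Kif3b, a kinesin-2 subunit, had r = 0.87 by 1450073_at (permutation p = 0.0011, adjusted 0.022) and a Spearman rank correlation of 0.93 (p = 0.00033, adjusted 0.0064). Klc1, the light chain that links kinesin-1 to cargo, had r = 0.81 by 1448541_at (permutation p = 0.0042, adjusted 0.050) and a Spearman rank correlation of 0.84 (p = 0.0037, adjusted 0.042). Kif2a, a kinesin that takes microtubules apart at their ends, had r = 0.79 by 1452499_a_at (permutation p = 0.0043, adjusted 0.050) and a Spearman rank correlation of 0.94 (p = 0.00022, adjusted 0.0064). Without the mice farthest in Kif5a, null replicate 4 and wild type replicate 2, r was 0.93 for Kif5c, 0.95 for Kif1a, 0.91 for Kif3b, 0.88 for Klc1 and 0.77 for Kif2a.

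These 5 of 58 were past an adjusted p of 0.05 by r, all above 0, with Klc1 and Kif2a just under it. Within labels, after each group mean was taken off, r was 0.96, 0.94, 0.86, 0.81 and 0.83 for the same 5. An r of at least 0.8 with Kif5a was found for 5 of the 58 member probe sets (8.62%), these without Kif2a and with Kif1b by 1451762_a_at, beside 2.18% of all 7153 single-gene probe sets of such signal, and an r of at most -0.8 for 0 and 0.769%. None of the 5 past the adjusted threshold was the brightest probe set of its gene. By the brightest, r with Kif5a was 0.78 for Kif1a (0.94 without the 2 farthest mice), 0.46 for Kif3b (0.79), 0.32 for Kif2a (0.90), 0.10 for Kif5c (0.09) and -0.53 for Klc1 (-0.23), none of them with an adjusted p under 0.05.

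A measure of RNA quality is given beside Kif5a. On the array's control probe sets, the signal of the 5′ end of Actb minus its 3′ end was -0.13, -0.18, -0.08, 0.03 and -0.35 in wild type and 0.03, -0.17, -0.37, 0.02 and -0.01 in null, with no difference by label past 0.05 (exact permutation p = 0.643). Kif5a had r = 0.76 with this measure (permutation p = 0.011, adjusted 0.29) and a Spearman rank correlation of 0.87 (permutation p = 0.0022, adjusted 0.15), and r = 0.78 without wild type replicate 5 and null replicate 3. With the same measure of Gapdh, Kif5a had r = 0.75 (permutation p = 0.013, adjusted 0.29). The Spearman rank correlation was 0.79 (permutation p = 0.0088, adjusted 0.24), and r was 0.52 without wild type replicates 2 and 5. Over 35 members and the controls of Actb and Gapdh, 0 of 70 such relations had an adjusted p under 0.05. The part of RNA quality in the shared spread was not tested.

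**Figure D4:**
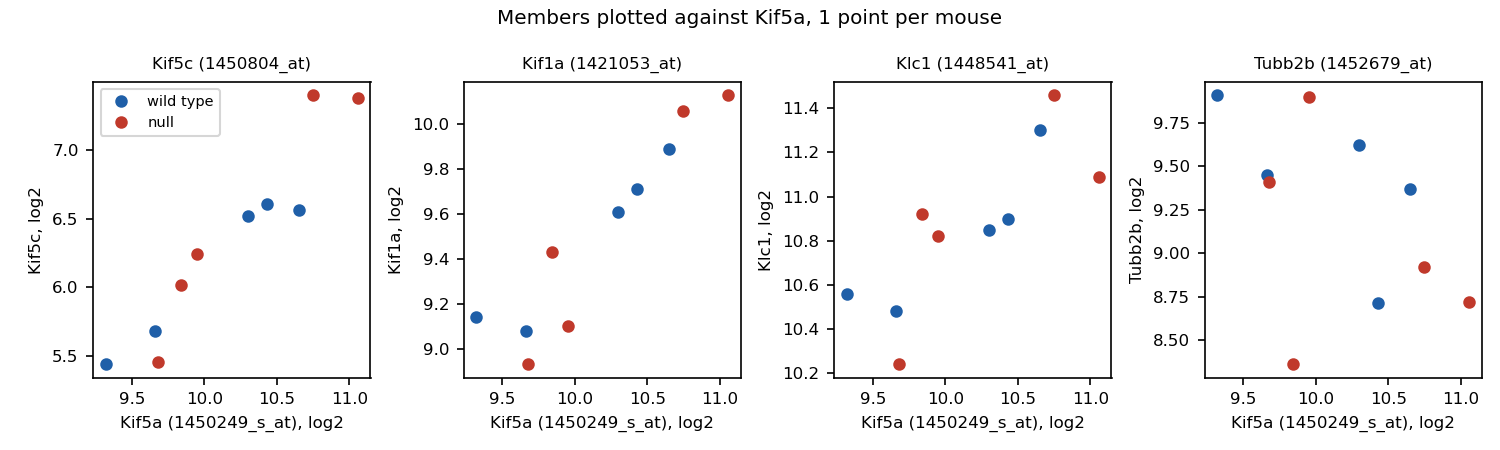
Log2 values of 4 members (vertical axes) against Kif5a by 1450249_s_at (horizontal axes), with a point for each of the 10 mice (blue, labelled wild type; red, labelled null). Kif5c, Kif1a and Klc1 by the probe sets named are higher in mice with more Kif5a signal under both labels (r of 0.96, 0.93 and 0.81), whereas Tubb2b has r = -0.48.

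Among the other kinesins no member had a limma p under 0.05. Kif3a, the partner of Kif3b and Kif3c in kinesin-2, differed by 0.04 (SE 0.05). All 5 kinesin-3 genes lay below 0 (median -0.07, beside -0.044 over genes with a mean of at least 5), with the dim Kif13a at -0.001. Kif1a and Kif1c differed by -0.07 (SE 0.14) and -0.14 (SE 0.11). Of the 7 mitotic kinesins, which move chromosomes and build the spindle, only Kif22 had a mean of at least 5. It was at 5.95, 6.51, 5.92, 6.00 and 5.97 in wild type and at 5.73, 5.82, 6.01, 5.57 and 5.96 in null, a difference of -0.25 (SE 0.12, limma p = 0.0689, exact permutation p = 0.103) that was -0.14 without wild type replicate 2, its highest array. By the dim probe sets 1423813_at and 1451128_s_at, at means of 2.01 and 1.43, Kif22 differed by -0.028 and 0.05. The mean over all its probe sets differed by -0.076. The 5 markers of dividing cells measured had means under 5 and a summed level of 4.81 to 5.29 in wild type, where replicate 2 was the highest, and 4.87 to 4.96 in null. Kif12, with a mean of 1.69, had the lowest p of the remaining kinesins, at a difference of 0.11.

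Of the 18 myosins, 13 lay above 0 (median 0.04, beside -0.0021 over all genes), and 15 had means under 5. Myo9b, an unconventional myosin, was at 3.14 to 3.25 in 4 wild type arrays, lower still in wild type replicate 2, and at 3.40, 3.37, 3.41, 3.24 and 3.17 in null. Null replicates 4 and 5 lay within the wild type range and the other 3 above it. The difference was 0.17 (SE 0.06, limma p = 0.0201, exact permutation p = 0.0397) at a mean of 3.23, close to the floor of the array, and it had a limma p of 0.0539 after median centring. Of the bright myosins, Myo5a, which carries endoplasmic reticulum and vesicles into dendritic spines, differed by -0.14 (SE 0.12), Myo6, which moves toward the minus end of actin, by 0.05 (SE 0.10), and Myo18a by 0.13 (SE 0.12).

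The map of deviations shows the 35 brighter members by mouse. Against the mean of its own label, the median size of a deviation over these 35 members was 0.18 in wild type replicate 1 and in null replicate 5 and 0.07 to 0.12 in the other 8. Over the 4921 genes of such signal the same arrays stood at 0.13 and 0.16, beside 0.14 for wild type replicate 2. Tubb2b, Dync1i1 and Myo5a were all low in wild type replicate 1 and high in null replicate 5, whereas Kif5b, Tubb5 and Kif21a were turned.

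**Figure D5:**
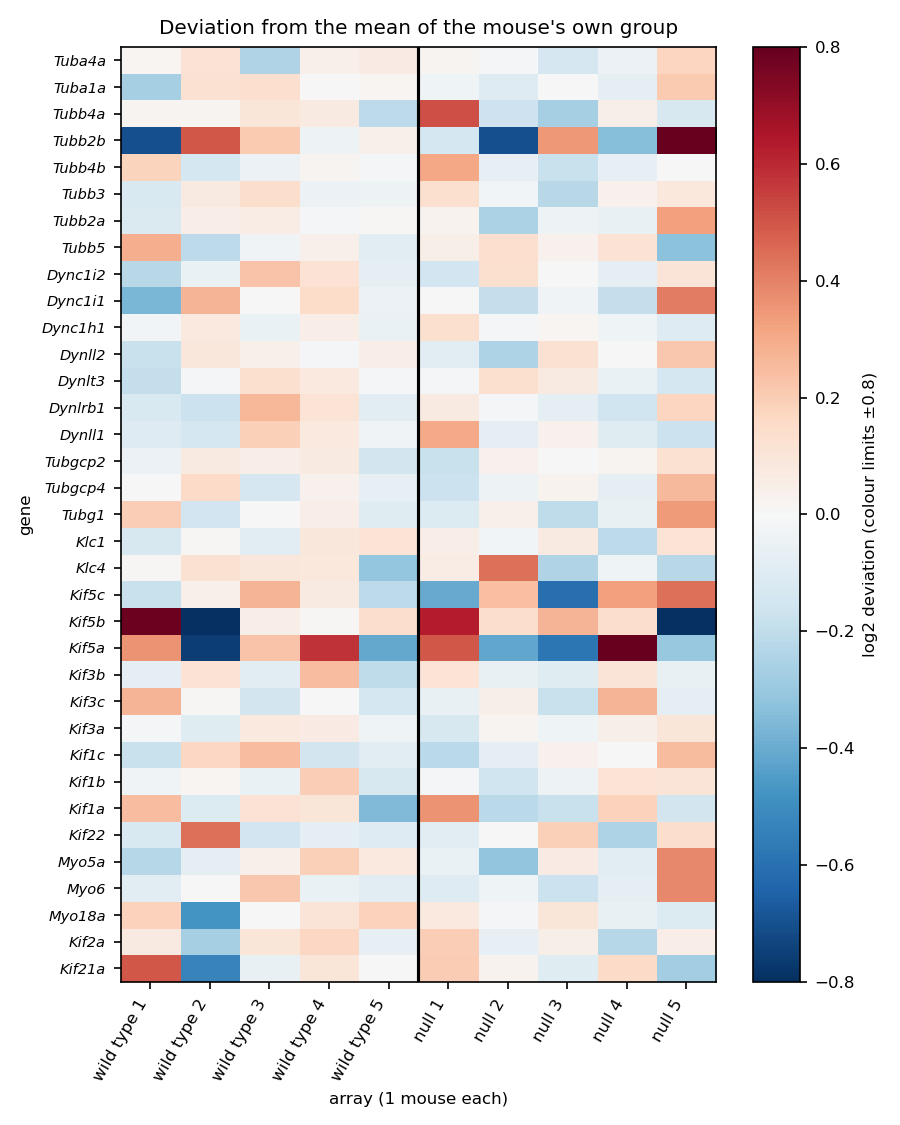
Deviation of each of the 35 members with a mean of at least 5 (rows, by role) from the mean of the mouse's own label (log2, red above and blue below, colours limited at 0.8 either way) in each of the 10 arrays (columns). The strongest colours stand in Kif5a, Kif5b and Tubb2b, and in wild type replicates 1 and 2 and null replicate 5.

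Genes that work with the motors were described from lists. Of 16 dynactin subunits and dynein regulators measured, 1 was higher at a limma p under 0.05 and 0 lower, which was Dctn1, the dynactin subunit that binds dynein and microtubules (0.49, SE 0.21, limma adjusted p = 0.999). Bicd2, a cargo adaptor of dynein, differed by 0.28 and Pafah1b1 (Lis1), a regulator of dynein, by -0.13. Of 23 microtubule-associated proteins, 0 passed in either direction, and the lowest p belonged to Clip1 (0.15), Map7d1 (-0.18) and Stmn4 (0.16). Of 19 kinesin partners and cargo adaptors, 1 was lower, Mapk8ip1 (-0.21, limma adjusted p = 0.999), a scaffold that links kinesin light chains to cargo, with Mapk8ip3 at -0.26 and Appbp2 at 0.20. Of 25 genes of tubulin folding and modification, 1 was lower, Agtpbp1 (-0.36, limma adjusted p = 0.999), which trims glutamates from the tubulin tail, with the prefoldin subunits Pfdn1 at -0.29 and Pfdn2 at 0.11. Of 10 genes of axonemal dyneins and cilia, 1 was higher, Dnah11, at a mean of 1.67, and of 11 genes of myosin II and myosin light chains 0 passed. No gene of these lists had an adjusted p under 0.05. The share of each list is read beside the 2.61% of all genes lower and 1.33% higher. Outside the cilia and myosin lists most of these genes had a mean of at least 5. Over all genes of such signal 5.2% were lower and 1.32% higher.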

How the data were processed

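Gene expression was measured in cerebral cortex of 10 mice, 5 per label. The deposited log2 values were made by the authors with GC-RMA (GCRMA, version not given in the sources used here), which corrects for nonspecific binding from each probe's GC content, scales the arrays to each other and gives 1 value per probe set. For arrays, their number limits the precision.

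Tests covered 22626 probe sets, without 64 controls. A single gene was annotated for 20380, more than 1 for 691 and none for 1555, and 20351 were matched to RefSeq (GRCm38.p6). Null minus wild type was fitted by lmFit and eBayes of limma 3.58.1 (R 4.3.3), without a block, with Benjamini-Hochberg adjustment over all probe sets and a threshold of 0.05; single genes were also tested by exact permutation (two-sided, smallest p 0.00794) in scipy 1.17.1, and relations across mice by permutation. Fits were tested on simulated data.

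The members and lists were chosen with earlier results of these data known. Genes were named if they had an unadjusted p under 0.05 (up to 10 each way), the smallest p of their role group, or belonged to a core (Kif5a, Kif1a, Klc1, Dync1h1, Dynll1, Tuba1a, Tubb3, Myo5a), with up to 3 genes per related list. All other genes were named after their values were seen. Marker lists covered neurons, interneurons, oligodendrocytes, astrocytes, microglia, endothelial and mural cells, choroid plexus and ependyma, striatum, dividing cells and red blood cells. The alternatives were array weights, a replicate block, quantile normalization, median centring, a robust prior with a trend on intensity, leaving out means under 5, a floor at 4, the methods' t-test, the mean of all probe sets of a gene and leaving out each array. Chosen after seeing the data were Actb 5′ minus 3′ signal as a covariate, and leaving out wild type replicate 2 and null replicate 5 together.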

Additional observations from a re-analysis of the deposited data

Results flagged for a closer look

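In 4 of 56 groups of 5 arrays tested, 1 array stood far from the other 4, by the size of its gap against the range of the group. Chance gives such a gap in about 1 in 20 groups that were not picked by their values. The groups were those of the named genes, and some, Kif5b and Tubb5 among them, were named after their values were seen. The count can therefore not be read against that rate. Kif22 in wild type replicate 2 was at 6.51, above the others at 5.92 to 6.00. Tubb4a in wild type replicate 5 was at 6.99, below the others at 7.22 to 7.30. In null replicate 5, Kif5b was at 9.24, below the others at 10.56 to 11.05, and Tubb5 at 11.88, below the others at 12.24 to 12.34.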

How the results depend on the processing

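No member passed an adjusted p of 0.05 under any of the 21 alternatives. The methods' t-test gave 4 members lower and 1 higher at a p under 0.05, beside 1.9% of all genes lower and 1.63% higher. After Benjamini-Hochberg adjustment it gave 0 members. The count of members lower at an unadjusted p under 0.05 was 2 after quantile normalization (1.78% of all genes lower). It was 3 to 7 with 1 array left out (1.83% to 5.96% of all genes lower). Without null replicate 5, which gave the 7, 5.96% of all genes were lower. The count of higher members was 0 with a floor at 4, after median centring and without dim probe sets (a mean under 5). Of all genes 0.565%, 1.35% and 0.671% were higher in these settings. The count was 2 with the Actb covariate (1.32% of all genes) and 4 without wild type replicate 2 and null replicate 5 (2.78%). It was 5 with array weights (2.82%), and 0 to 3 with 1 array left out (0.96% to 2.15%). The median of the mitotic kinesins was -0.251 without dim probe sets, which leaves 1 gene. That of the other kinesins was 0.03 by the mean of all probe sets, 0.019 without dim probe sets, 0.021 after quantile normalization, 0.012 without those 2 arrays and -0.039 to 0.017 with 1 array left out.

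The replicate numbers were not shown to pair the mice: deviations of same-numbered arrays correlated at 0.457, 0.076, 0.047, 0.082 and 0.072, and 1 of 5 wild type arrays correlated best with its own number. With the replicate block the limma p was 0.0699 for Tubb3 and 0.00299 for Tubb4b. Members were then lower in 4 cases and higher in 1, beside 3.63% of all genes lower and 1.57% higher. After quantile normalization the limma p was 0.103 for Tubb3, 0.0604 for Tubb4a, 0.051 for Tubb4b, 0.0962 for Dynll2 and 0.0111 for Dync1i2.

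Of 416 values of the 20 named genes under alternatives, 397 kept the sign and 19 turned. By the mean of all probe sets, Kif3a was at -0.027, Kif5c at 0.066, Klc1 at 0.069 and Tuba4a at 0.0049. With array weights Kif5a was at -0.048 and Tuba1a at -0.025, and after quantile normalization Tuba4a was at 0.049. Without wild type replicate 2 and null replicate 5, Kif3a was at -0.01, Tuba1a at -0.018 and Tubg1 at -0.017. With 1 array left out, the lowest and highest values were -0.01 and 0.11 for Dynll1, -0.021 and 0.32 for Kif5a, -0.076 and 0.0059 for Klc1, -0.064 and 0.037 for Tuba1a and -0.073 and 0.021 for Tuba4a. Myo9b and Kif12 lie under the floor at 4 and the filter on dim probe sets, so neither has a value there. Causes were not tested.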

Other observations

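Summed log2 levels of the other cell type lists overlapped between labels. Interneuron markers were at 13.33 to 13.45 in wild type and 13.20 to 13.43 in null, astrocyte markers at 12.44 to 12.84 and 12.44 to 12.91, and microglial markers at 9.70 to 9.92 and 9.70 to 10.05. Endothelial and mural markers were at 10.82 to 11.11 in wild type and 10.59 to 10.92 in null (means 10.96 and 10.74). In that list Rgs5, a marker of pericytes, differed by -0.24, and in the astrocyte list S100b by -0.25, both with an unadjusted limma p under 0.05 and an adjusted p of 0.999. Choroid plexus and ependymal markers ranged from 5.60 to 7.95 in wild type and from 5.65 to 6.99 in null, striatal markers from 7.15 to 7.59 and from 7.07 to 7.45, and red blood cell markers from 2.95 to 3.18 and from 2.96 to 3.02.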
